A study of Mus musculus with 8 samples.

Results

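Genes of the proteasome were examined in skeletal muscle of newborn ΔDMR1-U2 mice. They were chosen by name, as every row whose symbol starts with Psma to Psmg followed by a digit, which gave 49 of the 23336 genes in the table. The data were 8 total RNA libraries of skeletal muscle from C57BL/6 mice, all labelled female, at postnatal day 2. Of these, 4 were from mice with the ΔDMR1-U2 deletion and 4 from wild-type mice. The deletion lies at the imprinted Igf2 locus, where Igf2as is transcribed antisense to Igf2 and is the object of the study. The labels do not state which parent passed on the deletion, which muscles were taken, or whether each library came from a single animal. By their labels all libraries share strain, sex, age and tissue. Xist, given below, goes against the label female in ΔDMR1-U2 library 1A, so the ΔDMR1-U2 libraries may not share sex. P-values measure only the spread between these 8 libraries, part of which may be technical. No Cre driver or transgene is named in the labels.

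The proteasome is the protease that degrades proteins tagged with ubiquitin. Its 20S core is a barrel of stacked rings, in which alpha subunits (Psma) gate the entrance and beta subunits (Psmb) line the chamber, and the proteolytic sites sit on Psmb5, Psmb6 and Psmb7. The 19S cap recognises tagged proteins with its lid and base and unfolds them with a ring of ATPases (Psmc). Interferon induces Psmb8, Psmb9 and Psmb10, which take the places of Psmb5, Psmb6 and Psmb7 and form the immunoproteasome, and Psme1 and Psme2 form an alternative activator. In muscle the pathway is known for breaking down contractile proteins during atrophy.

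Of the 49 genes, 14 encode the core 20S, 17 the 19S cap and 3 the immunoproteasome. The others are 3 chaperones of 19S assembly, 4 chaperones of 20S assembly, 4 activators, the inhibitor Psmf1, and the tissue-specific subunits Psma8 of testis and Psmb11 of thymus. Psmc3ip also matches the name rule but encodes a partner of meiotic recombination proteins and no subunit, so it is given apart. After the filter on low counts 47 of the 49 genes were tested. Per library, in the order 1A, 1B, 2 and 3 that is kept throughout, Psma8 had counts of 14, 3, 10 and 8 in ΔDMR1-U2, against 5, 13, 8 and 3 in wild-type. Psmb11 had 1 to 2 counts in ΔDMR1-U2, against 2 to 4 in wild-type. Neither gene passed the filter.

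Total counts ran from 16781493 to 20060129 in the ΔDMR1-U2 libraries, against 16084413 to 26913636 in the wild-type libraries. Igf2as was low in all 4 ΔDMR1-U2 libraries, with 100 to 122 counts, against 1113 to 1868 in the wild-type libraries. ΔDMR1-U2 library 1A, labelled female, goes against that label in Xist, which is expressed from the inactive X chromosome, with 49 counts. In CPM, which are counts scaled to a common library size, this was 2.50, against 1270 CPM or more in the other 7. ΔDMR1-U2 library 1B lay at -41.7 on the first principal component, against -16.9 to 23.9 in the other 7. The 7 skeletal muscle markers, among them the myosin genes Myh3 and Myh8, summed to 57070 to 61860 CPM in ΔDMR1-U2, against 61230 to 74250 CPM in wild-type.

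The sequences of 2 promoters are shown because Psmb5 and Psmb6 encode catalytic subunits and, of the 11 core 20S genes with a window, were the only ones to hold the core of the antioxidant response element. That element, TGACNNNGC, is the one to which the factors of the Nfe2l family bind as known regulators of proteasome genes. A window without it, that of the 19S ATPase gene Psmc5, is shown beside them. Each window runs from 250 bases before to 50 bases after the RefSeq start site on GRCm38.p6, is printed 5′ to 3′ on the strand of the gene, and has the element in capitals. The windows are chr14:54617946-54618245 on the minus strand for Psmb5, chr11:70525107-70525406 on the plus strand for Psmb6 and chr11:106255935-106256234 on the plus strand for Psmc5.
Psmb5: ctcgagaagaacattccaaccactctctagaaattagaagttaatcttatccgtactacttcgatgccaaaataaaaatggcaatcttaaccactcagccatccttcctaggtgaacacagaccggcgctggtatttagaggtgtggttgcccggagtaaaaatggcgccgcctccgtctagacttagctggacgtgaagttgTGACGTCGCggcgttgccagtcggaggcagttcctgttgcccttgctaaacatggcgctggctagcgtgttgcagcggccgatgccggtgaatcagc
Psmb6: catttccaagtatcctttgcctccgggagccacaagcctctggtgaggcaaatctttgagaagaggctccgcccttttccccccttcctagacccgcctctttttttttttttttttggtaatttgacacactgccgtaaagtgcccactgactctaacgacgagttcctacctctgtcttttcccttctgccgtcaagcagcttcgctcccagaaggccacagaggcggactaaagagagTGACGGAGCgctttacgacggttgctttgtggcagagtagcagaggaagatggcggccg
Psmc5: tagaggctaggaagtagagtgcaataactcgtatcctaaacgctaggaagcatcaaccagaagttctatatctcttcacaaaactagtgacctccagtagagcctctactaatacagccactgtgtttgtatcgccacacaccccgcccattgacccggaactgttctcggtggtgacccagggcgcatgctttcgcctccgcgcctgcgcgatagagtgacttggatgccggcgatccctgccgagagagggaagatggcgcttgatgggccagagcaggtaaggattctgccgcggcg

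The element started 47 bases before the start site of Psmb5 and 9 bases before that of Psmb6. RefSeq windows on chromosome 18, where Psma8 and Psmg2 lie, were not used. The windows used covered 41 of the 49 genes. TGACNNNGC stood on either strand in 6 of these genes, or 14.6%, against 14% of the 27025 genes with such a window. The 6 were Psmb5, Psmb6, Psmc6, Psmd9, Psmd12 and Psme4. The core of the interferon-stimulated response element, GAAA, any 2 bases and GAAA again, stood in 12.2% of the proteasome genes and 3.99% of all genes, but in 0 of the 3 immunoproteasome windows. The windows of Psmb8 (chr17:34197945-34198244) and Psmb9 (chr17:34187281-34187580) lie wholly inside the annotated genes. Bases before the annotated 5′ ends of these genes were therefore not searched. The GC box GGGCGG was found in 56.1% of proteasome genes and 38.2% of all genes, and CCAAT in 36.6% and 41.1%. The 4 motifs were searched on both strands without regard to overlap with each other.

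No proteasome gene passed the threshold of the edgeR test in either direction, but most lay slightly below wild-type. Differences are given as log2 fold changes of ΔDMR1-U2 over wild-type with their standard error (SE), from the quasi-likelihood test of edgeR, and a gene was called at a Benjamini-Hochberg adjusted p under 0.05 over all 15241 genes tested. Of the 47 tested proteasome genes 0 were called, while 172 of all genes were, or 1.13%, with 0.512% called higher and 0.617% lower. With library scaling by total counts only, the split over all genes turned to 139 higher and 77 lower, against 78 and 94 here. At an unadjusted p under 0.05, 16 of the 47 were lower and 0 higher, whereas 10.9% of all genes were lower, 10.4% higher and 21.3% either. A second tool, DESeq2, called 4 proteasome genes lower and 0 higher, namely Psmc5, Psmc3, Psmd2 and Psmb7, with adjusted p from 0.0109 to 0.0455. DESeq2 called 459 of all genes higher and 503 lower, or 3.01% and 3.3%, together 6.31%. In the authors' deposited table the adjusted p was under 0.05 for 0 proteasome genes and the unadjusted p for 7, and the smallest adjusted p was 0.194, for Psmc5. The authors' deposited table has 179 genes in all at an adjusted p under 0.05, or 0.887% of the 20187 genes with a value.

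The log2 fold change was below 0 in 43 of the 47 tested proteasome genes, against 50.2% of all genes. In 37 genes it stayed below 0 under each of the 15 alternatives in which the gene was tested. Of these, Psmb9 and Psmc3ip were tested in 14. Scaling by total counts only left 40 of the 47 below 0 and 40.4% of all genes. With that scaling the median log2 fold change was -0.09 over the 47 and 0.05 over all genes. In the main edgeR fit the median was -0.14 over the 47 and 0.00 over all genes. Over the 6471 genes at or above the mean level of the lowest core 20S gene it was -0.01. The 4 libraries of one group lay apart from the 4 of the other in 10 of the 47, all lower in ΔDMR1-U2. Over all genes, 6.38% lay apart lower and 6.4% higher. The 95% interval lay within 0.5 of 0 on the log2 scale in 41 of the 47 genes and in 63.6% of all genes. The genes share the same 8 libraries, and these counts describe a chosen list and carry no test.

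**Figure D1:**
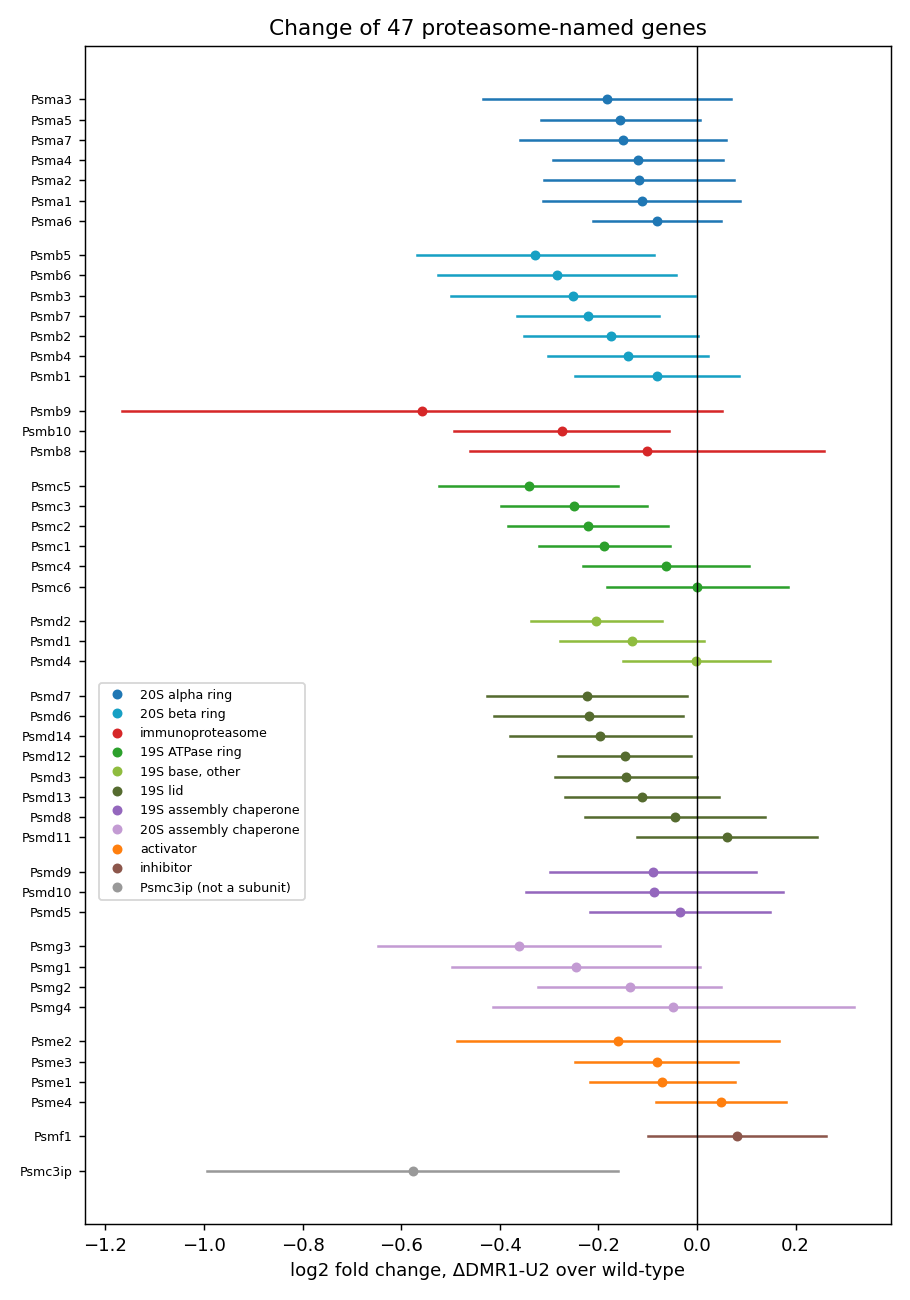
Log2 fold change of ΔDMR1-U2 over wild-type (horizontal axis) for each of the 47 tested genes, grouped and coloured by role, with points for the edgeR estimate, bars for its 95% interval and a line at 0. The 14 core 20S genes all lie left of 0 between -0.33 and -0.08, and Psmc6, Psme4, Psmd11 and Psmf1 are the 4 genes at or right of it.

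In the core 20S the median log2 fold change was -0.15, with all 14 genes below 0, from -0.33 for Psmb5 to -0.08 for Psma6. None was called. The 7 alpha ring genes had a median of -0.12 and none reached an unadjusted p of 0.05, while the 7 beta ring genes had a median of -0.22 with 4 at an unadjusted p under 0.05, which were Psmb3, Psmb5, Psmb6 and Psmb7. The difference between the rings was not tested. Psma6, the alpha subunit with the highest level per kilobase of all 47 genes, had 86.0, 89.8, 81.5 and 84.8 CPM in ΔDMR1-U2, against 90.8, 94.1, 91.7 and 85.0 CPM in wild-type. ΔDMR1-U2 libraries 1A and 1B lay above wild-type library 3, so that the groups overlapped, and the difference was -0.08 on the log2 scale (SE 0.059, adjusted p = 0.456).

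The 3 catalytic subunits were lower on average in ΔDMR1-U2 without passing the threshold. Psmb5 (chr14:54614119-54618022, build mm10), which carries the chymotrypsin-like activity, had 19, 22.4, 26.2 and 21.6 CPM in ΔDMR1-U2, against 31.9, 28.6, 24.9 and 26.8 CPM in wild-type. Only ΔDMR1-U2 library 2 reached into the wild-type range, and it lay above wild-type library 2. Psmb5 had a log2 fold change of -0.33 (SE 0.109, adjusted p = 0.133).

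Psmb6 (chr11:70525367-70527858), which carries the caspase-like activity, had 77.2, 71.9, 93.0 and 75.5 CPM in ΔDMR1-U2, against 115, 101, 83.1 and 88.8 CPM in wild-type. The same ΔDMR1-U2 library was again the one that reached into the wild-type range. The difference of Psmb6 was -0.28 on the log2 scale (SE 0.110, adjusted p = 0.177). Psmb7 (chr2:38588036-38644087), which carries the trypsin-like activity, had 109, 99.1, 111 and 99.3 CPM in ΔDMR1-U2, against 126, 128, 115 and 117 CPM in wild-type. It was the one core 20S gene whose groups did not overlap. For Psmb7 the log2 fold change was -0.22 (SE 0.065, adjusted p = 0.105). Exons of Psmb7 overlap those of Nek6 on the opposite strand over 405 bases, and the sources used here do not say whether strand was used in counting.

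Of the 17 genes of the 19S cap 15 were below 0, with a median of -0.15 and a range of -0.34 to 0.06. None was called, 9 had an unadjusted p under 0.05 and all 9 were lower, and in 6 the groups did not overlap. The ATPase ring had a median of -0.20 and held 4 of these 6, Psmc1, Psmc2, Psmc3 and Psmc5. Psmc5 (chr11:106256154-106263120) had the smallest adjusted p of the proteasome genes and was named after its values were seen. It had 56.3, 49.4, 43.4 and 51.5 CPM in ΔDMR1-U2, against 65.5, 59.9, 67.2 and 61.9 CPM in wild-type. Every ΔDMR1-U2 library lay below every wild-type library, with a gap between 56.3 and 59.9 CPM. Its log2 fold change was -0.34 (SE 0.083, adjusted p = 0.0679), a mean 21.1% below wild-type.

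Psmc3 (chr2:91054009-91066369), the 19S gene with the highest level per kilobase, had 141, 139, 156 and 139 CPM in ΔDMR1-U2, against 182, 175, 158 and 169 CPM in wild-type. The groups did not overlap, and ΔDMR1-U2 library 2 was close to wild-type library 2. Its log2 fold change was -0.25 (SE 0.067, adjusted p = 0.0879). Without ΔDMR1-U2 library 2 the adjusted p of Psmc3 was 0.0452, so that Psmc3 alone passed the threshold there. Its exons overlap those of Slc39a13 on the opposite strand over 215 bases.

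Psmc1 had 99.2, 97.8, 97.3 and 92.4 CPM in ΔDMR1-U2, against 110, 118, 103 and 109 CPM in wild-type, and Psmc2 had 69.7, 69.6, 65.5 and 63.7 CPM against 73.1, 83.6, 84.9 and 71.2 CPM. Neither pair of groups overlapped, and in Psmc2 wild-type libraries 1A and 3 lay close to the ΔDMR1-U2 libraries. Their log2 fold changes were -0.19 and -0.22, with adjusted p = 0.124 and 0.134 from edgeR. Psmc4 at -0.06 and Psmc6 at 0.00 were the 2 ATPase genes whose groups overlapped. Psmd2, a base subunit that docks ubiquitin-binding shuttle proteins, had 143, 143, 129 and 149 CPM in ΔDMR1-U2, against 162, 164, 164 and 159 CPM in wild-type. All ΔDMR1-U2 libraries of Psmd2 were below the lowest wild-type library. It was named after its values were seen, with a log2 fold change of -0.20 (SE 0.060, adjusted p = 0.104). Psmd4, a ubiquitin receptor, was at 0.00 and Psmd1, the other large scaffold of the base, at -0.13.

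The 8 lid genes had a median of -0.15. Psmd7 and Psmd14, which pair to form the deubiquitinating module that removes ubiquitin chains, had log2 fold changes of -0.22 and -0.20, and Psmd6, Psmd12, Psmd3 and Psmd13, structural lid subunits, -0.22, -0.15, -0.14 and -0.11. Psmd12 was the one lid gene whose groups did not overlap, with 64.0, 59.8, 55.9 and 57.4 CPM in ΔDMR1-U2, against 64.8, 66.3, 66.9 and 64.5 CPM in wild-type. ΔDMR1-U2 library 1A was next to the wild-type range. Psmd11, another structural lid subunit, was higher on average without passing the threshold, with 42.2, 36.0, 33.5 and 38.8 CPM in ΔDMR1-U2, against 34.5, 34.9, 38.4 and 36.6 CPM in wild-type. Here the groups overlapped across most of their range, and the log2 fold change was 0.06 (SE 0.083, adjusted p = 0.707). It was 0.0041 without ΔDMR1-U2 library 1A, the highest of the 8, and over the 15 alternatives it ran from 0.0023 to 0.11.

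The difference was not the same in each library. For each library the median over a complex was taken of the deviation of each gene from its wild-type mean, in log2 of CPM with 0.5 added. For the core 20S this median was -0.16, -0.25, -0.05 and -0.23 in ΔDMR1-U2, against 0.11, 0.08, -0.12 and -0.09 in wild-type. ΔDMR1-U2 library 2 lay inside the wild-type range. For the 19S cap it was -0.13, -0.17, -0.10 and -0.17 in ΔDMR1-U2, against 0.04, 0.06, -0.04 and -0.07 in wild-type, and the groups did not overlap. For the immunoproteasome it was -0.14, -0.25, -0.13 and -0.36 in ΔDMR1-U2, against -0.11, 0.09, 0.03 and 0.04 in wild-type, and wild-type library 1A lay next to the ΔDMR1-U2 libraries. The medians of the 7 muscle markers, which share the direction, were -0.23, -0.15, -0.11 and -0.22 in ΔDMR1-U2, against 0.15, -0.17, -0.13 and 0.09 in wild-type. All 7 had a log2 fold change below 0, with a median of -0.18. Of the 7, edgeR called 0 and found 3 at an unadjusted p under 0.05, while DESeq2 called Mylpf and Myh3 lower, with adjusted p of 0.00647 and 0.0424. Their part in the proteasome values was not tested. In RNA of whole tissue, fewer cells of a type and less RNA per cell cannot be told apart.

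**Figure D2:**
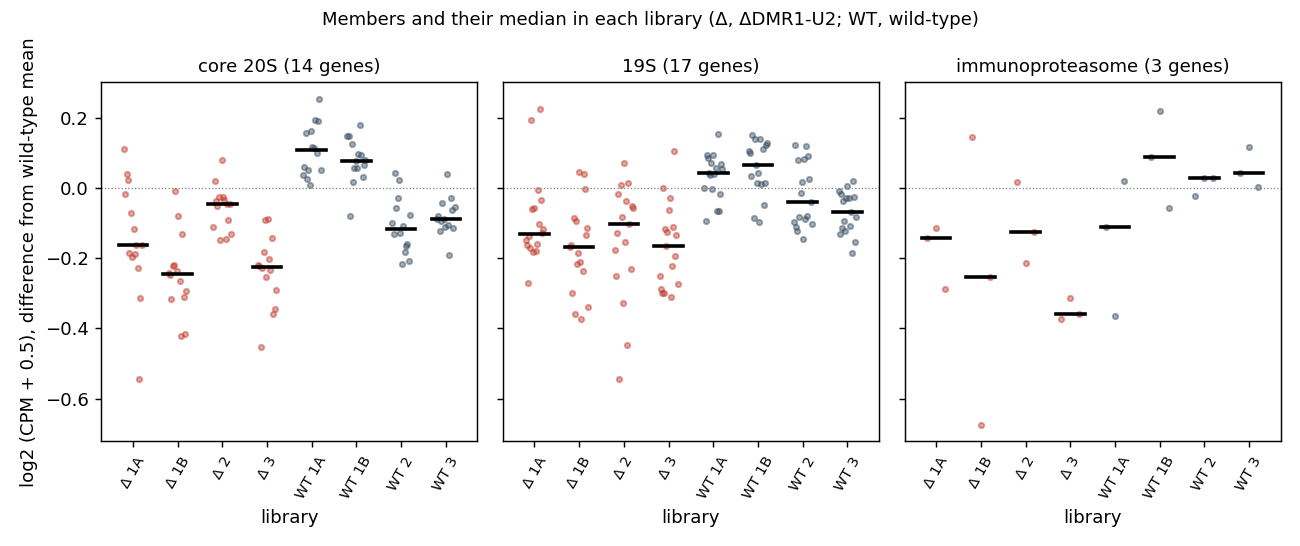
Difference of log2 (CPM + 0.5) from the wild-type mean (vertical axis) for each gene of the core 20S, the 19S cap and the immunoproteasome (points) in each library, ΔDMR1-U2 left of wild-type, with a bar at the median over the genes. In the core 20S the bar of ΔDMR1-U2 library 2 sits at -0.05 within the wild-type bars, while the 19S bars of the groups are apart.

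Without ΔDMR1-U2 library 1A the median log2 fold change of the core 20S was -0.17 and that of the 19S cap -0.18, and without library 1B they were -0.14 and -0.15. Without both they were -0.13 and -0.17. All 14 core 20S genes stayed below 0 in each of these fits.

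The immunoproteasome genes were far less abundant than the subunits they replace. Levels between genes are compared in CPM per kilobase of annotated exons. Psmb8, Psmb9 and Psmb10 had 0.751 ± 0.136, 0.189 ± 0.0519 and 3.66 ± 0.269 CPM per kilobase in ΔDMR1-U2, against 0.801 ± 0.0568, 0.272 ± 0.0678 and 4.42 ± 0.12 in wild-type (SD, n = 4 each). Their constitutive counterparts Psmb5, Psmb6 and Psmb7 had 24.8 ± 3.31, 42.4 ± 5.0 and 30.6 ± 1.81 CPM per kilobase in ΔDMR1-U2, against 31.2 ± 3.31, 51.7 ± 7.48 and 35.6 ± 1.91 in wild-type (SD, n = 4 each). In both groups, then, each inducible subunit was well below its counterpart.

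Psmb8 (chr17:34197721-34201454) had 47, 57, 46 and 40 counts in ΔDMR1-U2, against 38, 76, 71 and 66 in wild-type, or 2.40, 3.04, 2.75 and 1.97 CPM against 2.47, 2.91, 2.65 and 2.80 CPM. Both the highest and the lowest CPM were in ΔDMR1-U2 libraries. Psmb8 had a log2 fold change of -0.10 (SE 0.163, 95% interval -0.46 to 0.26, adjusted p = 0.756). It was 0.01 without ΔDMR1-U2 library 3.

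Psmb9 (chr17:34181987-34187764), its neighbour on the chromosome, had 17, 8, 13 and 14 counts in ΔDMR1-U2, against 10, 32, 27 and 26 in wild-type, or 0.868, 0.427, 0.776 and 0.691 CPM against 0.649, 1.23, 1.01 and 1.10 CPM. Wild-type library 1A lay among the ΔDMR1-U2 libraries and below all others of its group. Psmb9 had a log2 fold change of -0.56 (SE 0.276, 95% interval -1.17 to 0.05, adjusted p = 0.271), the widest interval of the 3. Exons of Psmb9 overlap those of the peptide transporter gene Tap1 on the opposite strand over 212 bases, and exons of Psmb8 those of Gm20496 over 498 bases.

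Psmb10 (chr8:105935735-105938444) had 6.08, 6.24, 6.86 and 5.77 CPM in ΔDMR1-U2, against 7.66, 7.23, 7.70 and 7.56 CPM in wild-type. The groups did not overlap, and wild-type libraries were close to each other. Psmb10 had a log2 fold change of -0.27 (SE 0.099, adjusted p = 0.155). Over the 3 immunoproteasome genes the median was -0.27, and without ΔDMR1-U2 libraries 1A and 1B it was -0.26.

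To ask whether inducible subunits changed relative to their counterparts, the log2 ratio of their counts was taken within each library, where no library scaling enters. As counts are not divided by length, the ratios are compared between groups only. Psmb8 counts were 12.6%, 13.6%, 10.5% and 9.11% of Psmb5 counts in ΔDMR1-U2, against 7.72%, 10.2%, 10.6% and 10.5% in wild-type. Wild-type library 1A was the lowest, and the groups overlapped. The mean log2 ratio was -3.13 ± 0.259 in ΔDMR1-U2, against -3.36 ± 0.215 in wild-type (SD, n = 4 each), a difference of 0.23 (exact two-sided permutation test, p = 0.229). Without ΔDMR1-U2 libraries 1A and 1B the difference was 0.02.

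Psmb9 counts were 1.13%, 0.594%, 0.834% and 0.914% of Psmb6 counts in ΔDMR1-U2, against 0.566%, 1.22%, 1.22% and 1.24% in wild-type. Wild-type libraries 1B, 2 and 3 lay above all ΔDMR1-U2 libraries and wild-type library 1A below them. The mean log2 ratio differed by -0.24 (exact two-sided permutation test, p = 0.486), and without wild-type library 1A by -0.50. Psmb10 counts were 5.60%, 6.30%, 6.19% and 5.81% of Psmb7 counts in ΔDMR1-U2, against 6.08%, 5.63%, 6.68% and 6.46% in wild-type. These groups overlapped as well, with a difference of -0.05 (exact two-sided permutation test, p = 0.429). Adjusted over the 3 ratios the permutation p was 0.486 for each, and the smallest p that 4 against 4 libraries allow is 0.0286.

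**Figure D3:**
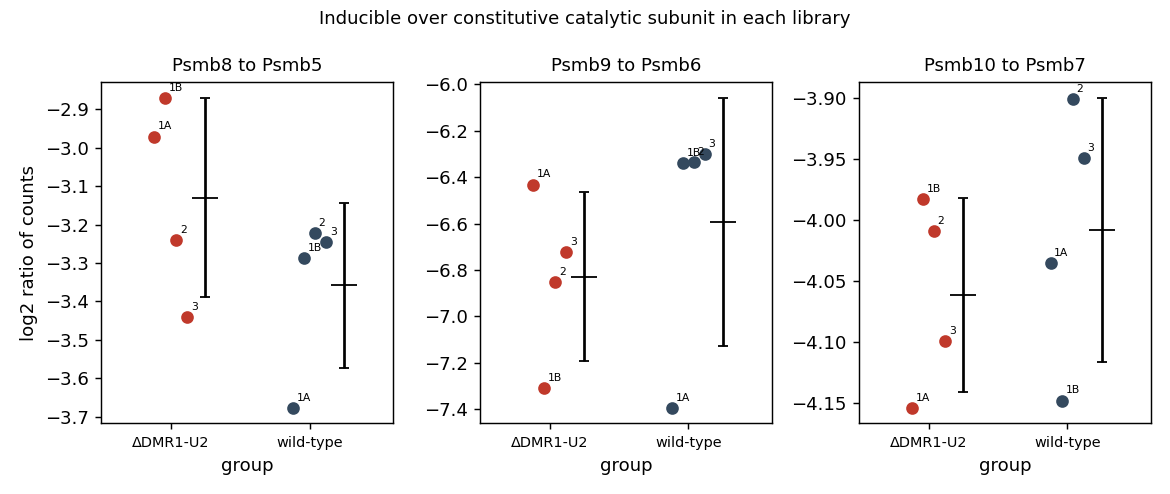
Log2 ratio of the counts of each inducible subunit to those of its constitutive counterpart (vertical axis), with 1 point for each library, ΔDMR1-U2 left of wild-type, and bars for each group's mean and SD. The groups overlap in all 3 ratios, and wild-type library 1A is the lowest point of Psmb8 to Psmb5, at -3.68, and of Psmb9 to Psmb6, at -7.39.

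None of the 4 activators or the inhibitor was called, and the 95% interval of each lay within 0.5 of 0 on the log2 scale. Psme1 had 25.2, 24.1, 26.3 and 25.4 CPM in ΔDMR1-U2, against 26.4, 26.0, 25.9 and 27.7 CPM in wild-type, and its partner Psme2 had 6.74, 4.32, 4.47 and 5.53 CPM against 5.97, 6.08, 6.06 and 5.48 CPM. The groups of both genes overlapped, and Psme2 spread more among ΔDMR1-U2 libraries. Their log2 fold changes were -0.07 (SE 0.067, adjusted p = 0.573) and -0.16 (SE 0.148, adjusted p = 0.562). That of Psme2 was -0.30 without ΔDMR1-U2 library 1A, its highest, and -0.07 without 1B, its lowest. Psme2 has a near-identical copy, Psme2b, with 99.4% identity over 794 aligned bases and no row of its own in the table, so that reads of the pair may have been shared or dropped.

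Psme4, the activator PA200, had 241, 233, 255 and 232 CPM in ΔDMR1-U2, against 220, 237, 236 and 236 CPM in wild-type. Wild-type library 1A was below the others, and ΔDMR1-U2 libraries lay on both sides of the other wild-type libraries. Its log2 fold change was 0.05 (SE 0.060, adjusted p = 0.675). Psme3, which forms a nuclear activator, was at -0.08. The inhibitor gene Psmf1 had 19.1, 22.7, 20.7 and 18.9 CPM in ΔDMR1-U2, against 18.3, 19.7, 18.9 and 19.9 CPM in wild-type. This was the highest log2 fold change of the 47, at 0.08 (SE 0.082, adjusted p = 0.594), and the groups overlapped.

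Among assembly chaperones, Psmg3, which acts in building the alpha ring, had 4.80, 4.43, 5.07 and 4.83 CPM in ΔDMR1-U2, against 7.40, 6.43, 5.50 and 5.39 CPM in wild-type. The groups did not overlap, with a narrow gap between ΔDMR1-U2 library 2 and wild-type library 3. Psmg3 had a log2 fold change of -0.36 (SE 0.130, adjusted p = 0.154). The other 20S chaperones Psmg1, Psmg2 and Psmg4 were at -0.24, -0.14 and -0.05, and the 19S chaperones Psmd5, Psmd9 and Psmd10 at -0.03, -0.09 and -0.09. Psmc3ip, which is no subunit, had 2.35, 2.72, 2.57 and 2.66 CPM in ΔDMR1-U2, against 5.39, 3.87, 3.40 and 2.93 CPM in wild-type. Its groups did not overlap, wild-type libraries were widely spread, and its log2 fold change was -0.58 (SE 0.190, adjusted p = 0.129). Without it, 42 of 46 tested genes were below 0.

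Core 20S and 19S genes covered overlapping ranges of level per kilobase. The median over the 14 core 20S genes was 23.5 ± 1.6 CPM per kilobase in ΔDMR1-U2, against 26.7 ± 1.94 in wild-type, and over the 17 genes of the 19S cap 29.2 ± 1.28 in ΔDMR1-U2, against 30.4 ± 2.44 in wild-type (SD of the library medians, n = 4 each). Divided by the longest transcript instead of all annotated exons, the core 20S median was 39.05 in ΔDMR1-U2, against 43.28 in wild-type, and that of the 19S cap 38.21 in ΔDMR1-U2, against 44.56 in wild-type. With these lengths the order of the complexes turned in ΔDMR1-U2, where the 19S median was below that of the core, and Psmb6 in place of Psma6 had the highest level of the 47. Over all 8 libraries the core 20S genes ran from 10.03 CPM per kilobase for Psma3 to 71.3 for Psma6, and the 19S genes from 5.78 for Psmd11 to 60.4 for Psmc3. The highest level within the core was 7.11 times the lowest, although the particle holds these subunits in equal numbers. This ratio depends on the lengths used, as annotated exons cover 3894 bases for Psma3 and 1234 for Psma6. Undivided by length, Psma3 averaged 36.6 (ΔDMR1-U2) and 41.5 (wild-type) CPM, and Psma6 85.5 (ΔDMR1-U2) and 90.4 (wild-type). Psma3 also has near-identical copies, so that its reads may have been shared or dropped. Whether RNA of the subunits truly differs was not tested. Psmb9, at 0.231 CPM per kilobase, was the lowest of the 47.

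**Figure D4:**
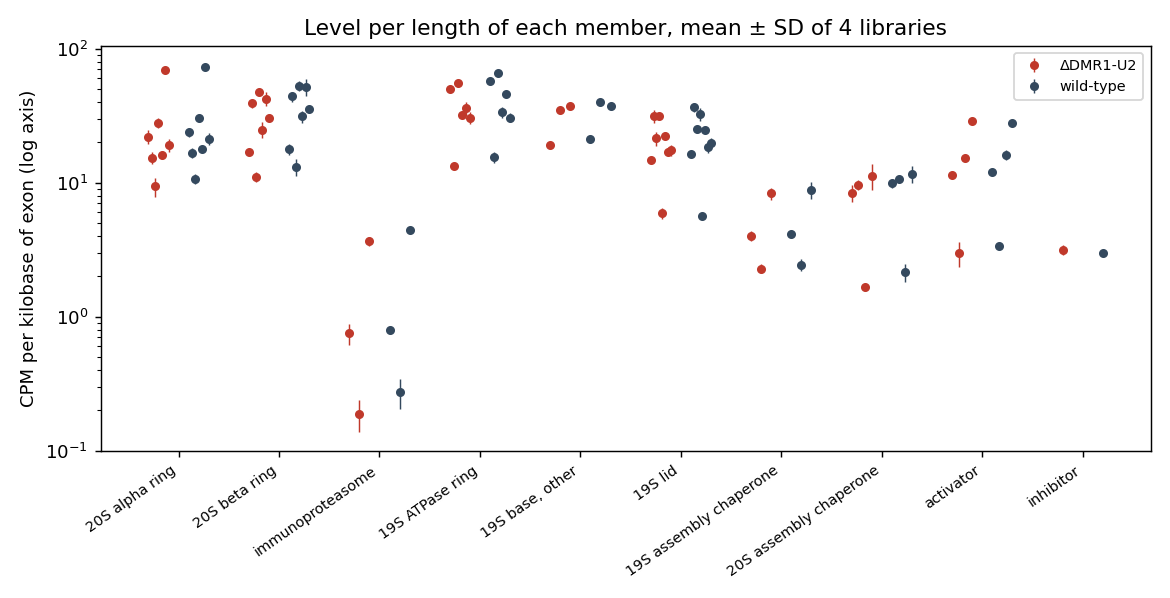
Mean level of each tested gene other than Psmc3ip in CPM per kilobase of annotated exons (log axis) by role, with points and bars for the mean and SD of 4 libraries, ΔDMR1-U2 left of wild-type. Core 20S and 19S genes fill the upper range up to 71.3 for Psma6, while Psmb8 and Psmb9 lie below 1 and Psmb10 at about 4 in both groups.

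Counting may have mixed some of these genes with their copies. Near-identical copies, with at least 90% identity over at least 300 bases, were annotated for 11 of the 49 genes, Psma2, Psma3, Psma4, Psma5, Psmb1, Psmb5, Psmb7, Psmc1, Psmd2, Psmd14 and Psme2. None of their 19 copies had a row in the table. For Psmb5 the closest was a pseudogene with 98.9% identity over 796 bases. Exons of 12 of the 49 genes overlap exons of a gene on the opposite strand. Values of these genes are uncertain to that extent.

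Genes that work with the proteasome were taken from lists of related genes. Of 18 proteasome cofactors outside the name rule 17 were tested, with a median log2 fold change of -0.05 and 0 called by edgeR or DESeq2. For Zfand5, a ubiquitin-binding activator of the proteasome, it was 0.22, for Uchl5, a deubiquitinase of the 19S cap, -0.23, and for AI314180, the most abundant of them, 0.04. Pomp, which builds the 20S core and was named after its values were seen, had 35.8, 30.7, 36.9 and 33.2 CPM in ΔDMR1-U2, against 41.0, 40.2, 37.9 and 37.3 CPM in wild-type, without overlap. Its log2 fold change was -0.20 (SE 0.077, edgeR adjusted p = 0.182). Of 12 genes for ubiquitin and its activation edgeR called 0, with a median of -0.05, and the ubiquitin gene Ubb was at -0.21. The unfoldase gene Vcp, at -0.16, was called lower by DESeq2 (adjusted p = 0.0453). 

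Ubiquitin ligases known from muscle lay on both sides of wild-type. Of 17, edgeR called 0, with a median log2 fold change of 0.07 and an unadjusted p under 0.05 for 4 higher and 3 lower. Cblb was at 0.40 (edgeR adjusted p = 0.0679), Mib1 at 0.22 and the abundant Nedd4 at 0.05, and DESeq2 called Cblb and Mib1 higher, with adjusted p of 0.00924 and 0.0185. Asb2 was at -0.45, called lower by DESeq2 (adjusted p = 0.0295), and Asb15 and the chaperone-linked ligase Stub1 were at -0.65 and -0.26. The level of Asb15 was low, at 0.839 to 1.91 CPM in ΔDMR1-U2, against 1.72 to 2.51 CPM in wild-type. Its groups overlapped (SE 0.242, edgeR adjusted p = 0.162). Fbxo32, the atrophy-linked ligase atrogin-1, had 32.5, 109, 33.6 and 43.9 CPM in ΔDMR1-U2, against 22.3, 21.6, 29.3 and 37.5 CPM in wild-type. ΔDMR1-U2 library 1B stood far above the rest, and the groups overlapped. The log2 fold change of Fbxo32 was 0.98 (SE 0.360, edgeR adjusted p = 0.160), and 0.40 without that library. Trim63, another ligase of the list, was at 0.19 (edgeR adjusted p = 0.710). It had 73.4 CPM in ΔDMR1-U2 library 1B, against 26.05 to 34.73 CPM in the other ΔDMR1-U2 libraries and 32.8 to 42.8 CPM in wild-type.

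Of 14 genes of the interferon response and antigen presentation 0 were called by edgeR or DESeq2 and 0 had an unadjusted edgeR p under 0.05. Their median was -0.10, with 9 below 0 and 5 above. H2-K1 and B2m, which form a class I molecule, were at -0.23 and -0.17. The class I gene H2-D1 was at 0.05, Tap2 at 0.20 and the peptide-trimming Erap1 at 0.17.

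Among 11 regulators of proteasome genes edgeR called 1 higher and 0 lower, with a median log2 fold change of 0.13. It was Nfe2l3, a relative of Nfe2l1, which is the factor known to raise proteasome genes when the proteasome is inhibited. Nfe2l3 had 7.56, 7.58, 7.22 and 6.66 CPM in ΔDMR1-U2, against 4.87, 4.32, 5.39 and 4.76 CPM in wild-type. The groups were well apart. It rose by a log2 fold change of 0.58 (SE 0.111, edgeR adjusted p = 0.0411). Leaving out ΔDMR1-U2 library 2 kept the call, and leaving out any other single library ended it. The adjusted p was then 0.0631, 0.0641 and 0.0816 without ΔDMR1-U2 library 1A, 1B or 3, and 0.121, 0.112, 0.0826 and 0.0819 without wild-type library 1A, 1B, 2 or 3. Without ΔDMR1-U2 libraries 1A and 1B together it was 0.170. Nfe2l1 itself averaged 241 ± 21.7 CPM over the 4 ΔDMR1-U2 libraries, against 248 ± 9.93 CPM over the 4 wild-type libraries (SD), a log2 fold change of -0.05. DESeq2 called Nfe2l3 and also Maff, a small partner of these factors, higher, with adjusted p of 0.0035 and 0.00151. By edgeR Maff was at 0.82 (adjusted p = 0.0502).

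Other cell types that a muscle sample can hold were followed by their markers. The 10 leukocyte and macrophage markers, cells in which the immunoproteasome is known to be abundant, summed to 187 to 219 CPM in ΔDMR1-U2, against 186 to 271 CPM in wild-type, with a median log2 fold change of 0.03. None was at 0, and edgeR called 0, but the markers differed in direction, with 5 above 0 and 5 below. Ptprc, Coro1a and Cd52 were at 0.23, 0.23 and 0.41, each with overlapping groups. Emr1, C1qa and Csf1r were at -0.37, -0.24 and -0.25, each with overlapping groups, and Itgam was at 0.59, higher without overlap and called by DESeq2 (adjusted p = 0.0153). The 5 endothelial markers summed to 469 to 518 CPM in ΔDMR1-U2, against 496 to 528 CPM in wild-type, with a median of 0.01 and 0 called by edgeR. Cdh5 was at -0.28, lower without overlap and called by DESeq2 (adjusted p = 0.0048), and Tek at 0.20. Adipocyte markers summed to 233 to 594 CPM in ΔDMR1-U2, highest in library 1B, against 178 to 243 CPM in wild-type. All 5 tested adipocyte markers were above 0, with a median log2 fold change of 0.72, and 0 were called by edgeR or DESeq2. In Adipoq, Plin1, Cidec and Cfd library 1B was the highest of the 8, at 37.7, 26.4, 27.2 and 66.6 CPM. The other ΔDMR1-U2 libraries ran from 9.07 to 13.5, 8.95 to 12.3, 3.78 to 6.50 and 5.82 to 11.5 CPM. Wild-type means were 15.0, 12.9, 6.37 and 9.89 CPM in the same order. Without ΔDMR1-U2 library 1B Cfd was at -0.15. Fabp4, at 0.72, had 222, 436, 199 and 222 CPM in ΔDMR1-U2, against 162, 151, 180 and 161 CPM in wild-type, without overlap. Without ΔDMR1-U2 library 1B it was 0.39 and passed the edgeR threshold (adjusted p = 0.0470). With 0 called by edgeR or DESeq2, erythroid markers summed to 21.1 to 45.7 CPM in ΔDMR1-U2, against 31.6 to 76.0 CPM in wild-type, while the globin gene Hbb-b1 had 0 counts in all libraries. Of the 3 tested erythroid markers 2 were below 0 and 1 above. Alas2 was at -0.29, with 71.4 CPM in wild-type library 3 and 29.8 to 30.8 CPM in the other wild-type libraries. Without wild-type library 3 Alas2 was at 0.13. Hemgn was at 1.38 (edgeR adjusted p = 0.169), with overlapping groups. The part of these cell types in the proteasome values was not tested.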

How the data were processed

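One table of 23336 genes was used. Per the file headers, it holds a raw read count per gene and library, deposited by the authors without normalization. It also holds the authors' mean normalised counts (a signal without values per library), their fold (a ratio of wild-type over ΔDMR1-U2), the log2 of that ratio, and a p-value and adjusted p-value, all as deposited by the authors. The submitters' processing notes name the build mm10 and, among the tools, DESeq2 1.4.5, HTSeq 0.5.4p3, TopHat2 2.0.9, Bowtie2 2.1.0 and FastQC 0.10.1. The sources used here give no settings, annotation or strandedness. Per the labels' protocols, ribosomal RNA was depleted, so unspliced RNA can add to counts.

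The test on counts was that of edgeR 4.0.16 under R 4.3.3 (filterByExpr at a minimum count of 10, scaling by the trimmed mean of M values, quasi-likelihood test, Benjamini-Hochberg over 15241 genes), and 3149 rows had 0 counts in all libraries. CPM use the scaled library sizes. DESeq2 1.42.0, other scalings and filters, a replicate block and fits without libraries were alternatives. Ratios of counts had 0.5 added to each count. Gene lengths, overlaps and copies came from the GENCODE vM21 annotation of the same assembly, to which 49 of 49 genes matched, with blastn 2.17.0 for copies, and promoters from RefSeq GRCm38.p6. The biological coefficient of variation was 12.3%. The scripts were tested on simulated counts. Members, gene lists and tests were chosen with earlier results of these data known. Genes named with all values are the catalytic and inducible subunits, Psme1, Psme2, called genes, the 3 highest and 3 lowest log2 fold changes and the extremes of level per kilobase, and others were named after their values were seen. Some listed genes are not reported here.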

Additional observations from a re-analysis of the deposited data

Results flagged for a closer look

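In 4 of 42 groups of 4 libraries examined, the highest or lowest library stood further from the others than Dixon's 95% limit of 0.829, and chance gives about 1 in 20. Psmc3 had 156.3 CPM in ΔDMR1-U2 library 2, against 138.7 to 141.3 CPM in the other ΔDMR1-U2 libraries. Psme4 had 220.3 CPM in wild-type library 1A, against 235.8 to 237.2 CPM in the other wild-type libraries. The log2 ratio of Psmb8 to Psmb5 counts was -3.677 in wild-type library 1A, against -3.287 to -3.223 in the other wild-type libraries. The log2 ratio of Psmb9 to Psmb6 counts was -7.395 in the same library, from 10 counts of Psmb9, against -6.339 to -6.302 in the others. Wild-type library 1A accounts for 3 of the 4 and has the lowest total count of the 8 libraries. The cause was not tested.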

How the results depend on the processing

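Of 702 values of proteasome genes under 15 alternatives 29 had the opposite sign, in 7 genes. 37 genes were below 0 in all alternatives in which they were tested, among them the 14 core 20S genes, and Psmd11, Psme4 and Psmf1 above 0 in all. Proteasome genes called lower numbered 4 with DESeq2 and 0 to 1 when leaving out a library (Psmc3 without ΔDMR1-U2 library 2). Over all genes, calls higher were 139 with total counts only, 3 with the replicate block, 11 without ΔDMR1-U2 libraries 1A and 1B, 459 with DESeq2 and 4 to 294 leaving out a library. Calls lower were 10 with the replicate block, 5 without libraries 1A and 1B, 503 with DESeq2 and 3 to 337 leaving out a library. Both counts were highest without ΔDMR1-U2 library 2 and lowest when either wild-type library 1A or ΔDMR1-U2 library 3 was left out. Whether the replicate names pair the libraries is not known. Deviations of same-named libraries correlated at -0.216 to -0.0802 and those of other-named libraries at -0.248 to 0.361. So few libraries cannot exclude a pairing. With the block 43 of 47 proteasome genes were below 0 and Nfe2l3, at 0.59, was not called (edgeR adjusted p = 0.117). Core 20S levels per kilobase of the longest transcript were 39.05 in ΔDMR1-U2 and 43.28 in wild-type.

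Log2 fold changes that took the opposite sign were as follows. Psmc6 was -0.0024 with no filter, -0.0022 with the block, -0.058 without libraries 1A and 1B, and -0.066 to 0.052 leaving out a library. Psmd4 was 0.0025 with DESeq2, 0.0021 with other size factors, 0.014 with the stricter filter, 0.00014 with the block, 0.049 with total counts, 0.0026 without libraries 1A and 1B, and -0.043 to 0.029 leaving out a library. With total counts Psmd5 was 0.015 and Psmd8 0.0053. Leaving out a library gave -0.090 to 0.017 for Psmd5, -0.10 to 0.0072 for Psmd8, -0.20 to 0.0088 for Psmb8, -0.15 to 0.0041 for Psmd10, -0.20 to 0.060 for Psmg4, -0.41 to 0.13 for Alas2 and -0.15 to 1.57 for Cfd. Without libraries 1A and 1B Psmd10 was 0.025, Psmg4 0.15 and AI314180 -0.023. The cause was not tested. Psmb9 had 8 to 17 counts in ΔDMR1-U2, against 10 to 32 in wild-type, which limits the precision of its ratio.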
